A study of Homo sapiens with 39 samples.

Results

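The genes described are those for the proteins of the cytosolic ribosome, the RPL genes of the large subunit and the RPS genes of the small subunit. They were picked by gene symbol and not by their measured changes, though earlier results of these data were known when the set was chosen. Of 18132 genes with a probe set of their own, 71 qualified. They comprise 41 large subunit genes, 23 small subunit genes and 7 paralogs, which are second copies of a ribosomal protein gene elsewhere in the genome (RPL3L, RPL7L1, RPL10L, RPL22L1, RPL26L1, RPL39L and RPS27L). RPL17, RPL36A, RPS12 and RPS26 shared every probe set with another symbol and were not analysed here.

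RNA came from U937, an established human cell line derived from a histiocytic lymphoma, and was hybridised to Affymetrix 3′ IVT arrays. The treated groups received 10 µM of Pu27, Pu9- or Pu5- for 24, 48 or 72 h, and the untreated groups were collected at 0, 24, 48 and 72 h, with 3 arrays in each of the 13 groups. Pu27 has 27 nucleotides, 20 of them guanines, Pu9- has 20 with 15 guanines and Pu5- has 42 with 31 guanines. All are G-rich sequences related to an element of the MYC promoter that can fold into a G-quadruplex. No oligonucleotide of unrelated sequence was among the groups, so an effect of adding DNA as such cannot be told apart from an effect of sequence. The labels name 3 repeat experiments and say no more of how the arrays of a group differ, so the p-values below reflect array-to-array spread that may be technical in part.

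Cytosolic ribosomal proteins are assembled with ribosomal RNA in the nucleolus into the subunits that translate messenger RNA. Most of their messengers begin with a 5′ terminal oligopyrimidine tract (5′ TOP), a cytosine followed by an unbroken run of pyrimidines. Through this tract their translation, more than their amount, is known to follow growth signals that pass through mTORC1. MYC is known to raise transcription of many genes of ribosome production.

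The start of the transcript is shown for genes on which the results below turn, together with 3 pairs of a parent gene and its paralog. Each line gives 10 bases before the annotated start and the first 20 bases from it, 5′ to 3′ on the transcribed strand, from RefSeq (GRCh38.p14). Capitals mark a run that opens at the first transcribed base with C and holds at least 5 pyrimidines.
RPL12: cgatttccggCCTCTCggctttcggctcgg
RPS25: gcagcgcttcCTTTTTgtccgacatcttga
RPS14: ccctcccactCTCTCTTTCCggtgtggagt
RPL3: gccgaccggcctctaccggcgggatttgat
RPL35A: gggcctcgtcCTTCTCTTaccgccatcttg
RPL27A: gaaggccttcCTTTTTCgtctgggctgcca
RPL13: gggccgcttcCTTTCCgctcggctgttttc
RPL22: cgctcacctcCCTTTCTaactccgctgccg
RPL22L1: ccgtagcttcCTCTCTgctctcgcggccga
RPL26: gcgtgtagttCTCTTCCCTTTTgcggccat
RPL26L1: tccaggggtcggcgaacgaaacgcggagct
RPS27: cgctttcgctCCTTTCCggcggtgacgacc
RPS27L: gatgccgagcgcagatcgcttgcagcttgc
On the plus strand lie RPL35A at chr3:197950180-197950209, RPL27A at chr11:8682782-8682811, RPL13 at chr16:89560672-89560701, RPL26L1 at chr5:172958719-172958748 and RPS27 at chr1:153990752-153990781. On the minus strand lie RPL12 at chr9:127451387-127451416, RPS25 at chr11:119018324-119018353, RPS14 at chr5:150449720-150449749, RPL3 at chr22:39319604-39319633 and RPL22 at chr1:6199576-6199605. RPL22L1 at chr3:170870176-170870205, RPL26 at chr17:8383174-8383203 and RPS27L at chr15:63157458-63157487 also lie on the minus strand.

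A promoter entry was found for 59 of the 71 genes. Such a pyrimidine run stood at an annotated start of 42 of them (71.2%), against 5.14% of all 27305 genes with an entry. Among the paralogs it was present in 1 of 5, RPL22L1, and in the other genes in 41 of 54. RPL3 opens with 4 pyrimidines and so falls just short of the limit. The letters TTCCGG or their reverse complement CCGGAA, the core bound by ETS factors, occurred in the 300-base window of 59.3% of the 59 genes and of 20.1% of all genes. AAGATGGC or GCCATCTT, a core bound by YY1, occurred in 11.9% and 3.52%. The motifs were searched independently and a base could belong to both. A match describes letters in an annotated window and is not evidence of a site in use.

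Nearly all ribosomal protein genes gave signals close to the upper end of the array. Probe sets of 58 of the 71 genes averaged 13 or more on the log2 scale, where 116 genes in all did so, and the brightest value of an array lay between 14.52 and 14.69. RPL32 spanned 14.51 to 14.69 over the 39 arrays, RPS2 14.32 to 14.50, RPL31 14.34 to 14.52, RPLP1 14.29 to 14.46 and RPS10 14.26 to 14.36. RPLP1 encodes an acidic protein of the stalk that recruits elongation factors. Brightness also depends on the probes, so it does not rank the amounts of different transcripts, and whether signals this near the maximum understate a change was not tested.

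At the dim end stood RPL27A, with a mean of 4.30, RPL3L with 5.25 and RPL10L with 5.63, all below the median gene at 6.46. RPL3L and RPL10L are paralogs whose use is known mainly from striated muscle and from testis. RPL27A and RPL35A (8.70) are ordinary large subunit genes, and what part of their transcripts these dim probe sets read was not examined. The residual SD between arrays of a group had a median of 0.05 over the ribosomal protein genes and of 0.15 over all genes. Small changes of bright members were therefore measured with narrow intervals, with a median half-width of 0.13 log2 for a difference between groups of 3 arrays.

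**Figure D1:**
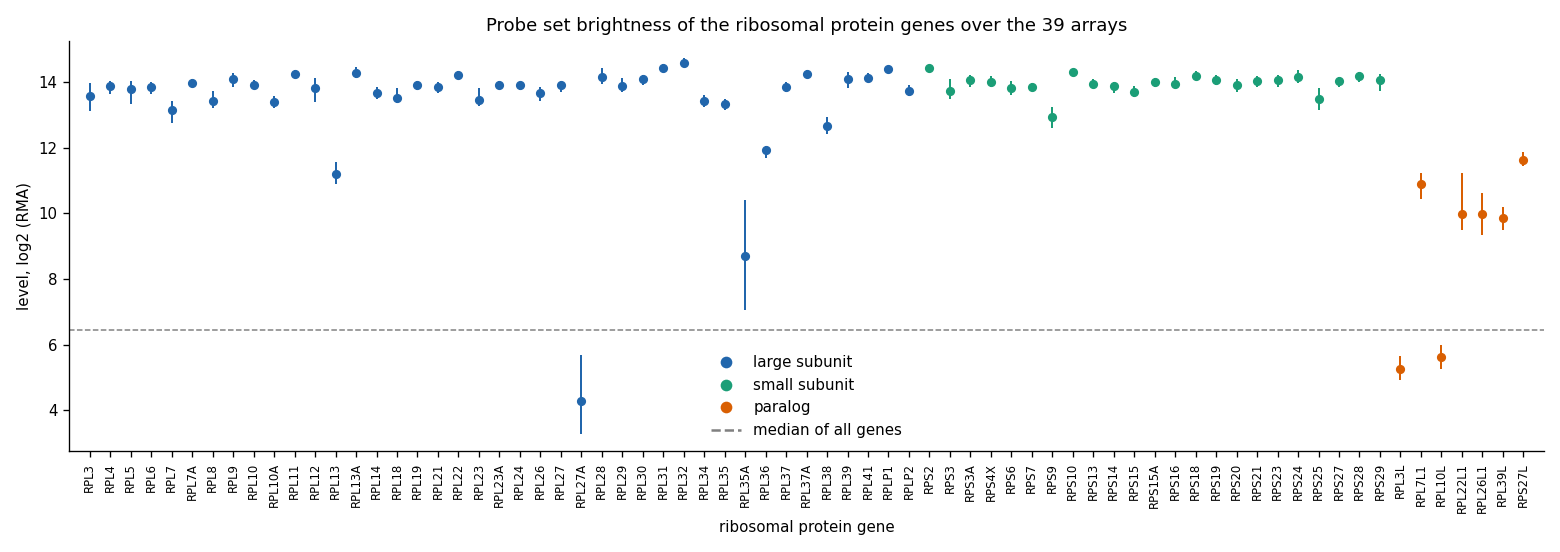
Each point is the mean level (log2, RMA) of the probe set used for a gene over the 39 arrays, and its line runs between the lowest and the highest array; colours separate large subunit, small subunit and paralog genes. Most points lie at 13 or above with short lines, RPL35A and RPL27A have the longest lines of the large subunit genes, and the dashed line at 6.46 is the median of all genes.

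Few ribosomal protein genes differed between oligonucleotide-treated and untreated cells of the same time. At 24 h no member passed the test with Pu27, Pu9- or Pu5-, where 0.0662%, 0.0165% and 0.0165% of all genes did by limma with Benjamini-Hochberg adjustment. At 48 h again none passed, beside 0.193%, 0.0165% and 0.0165% of all genes. Unadjusted p-values under 0.05 were found for 2, 3 and 1 members at 24 h and for 1, 0 and 1 at 48 h. At 24 h the 95% interval of 67, 66 and 64 of the 71 members lay wholly within 1.25-fold of untreated cells, and at 48 h that of 67, 66 and 67. These intervals bound the difference in probe set signal and not in transcript amount, since most of the signals lie near the array maximum. The lowest difference at 24 h was that of the dim RPL27A probe set, which read 5.08, 4.49 and 4.78 with Pu27, 5.30, 4.44 and 4.98 with Pu9-, 5.49, 4.56 and 5.12 with Pu5- and 5.65, 5.35 and 5.16 in untreated cells. With Pu27 it was -0.60 ± 0.21 (adjusted p = 0.538) and with Pu9- -0.48 ± 0.21, neither past the test.

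At 72 h the 95% interval lay within 1.25-fold for 63 members with Pu27, 67 with Pu9- and 66 with Pu5-. One member, RPL39L, passed the test with Pu27, beside 5.08% of all genes, and none did with Pu9- (0.96%) or Pu5- (0.778%). Unadjusted p-values under 0.05 numbered 4, 2 and 1. With the mean of each gene's probe sets 7 members passed with Pu27 (5.44% of all genes) and 1 with Pu5- (0.904%). With the replicate number as a block 1 passed with Pu9- (2.53%). The median difference of the 71 members was -0.01 for each oligonucleotide, against 0.04 over all genes for Pu27. With arrays shifted to a common median it became -0.04 for Pu27 and turned positive for Pu9- (0.04) and Pu5- (0.01). By the probe set used for each gene, small subunit genes showed 0 calls with any oligonucleotide at any time. Their differences ran from -0.11 to 0.04 for Pu27 at 72 h, with 0 of 23 at an unadjusted p under 0.05 in that comparison. A dimmer probe set of RPS23 did pass there, as given below.

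RPL39L, a paralog of the small large-subunit protein RPL39 that lines the exit tunnel and is known for its use in male germ cells, was higher with Pu27. At 72 h it read 10.04, 10.08 and 10.06 with Pu27, 9.95, 9.92 and 9.92 with Pu9-, 9.92, 9.96 and 9.91 with Pu5-, and 9.85, 9.67 and 9.59 in untreated cells. Every treated array was above every untreated one, and the 3 oligonucleotides share those untreated arrays. With Pu27 the difference was 0.35 ± 0.08 (SE, 3 arrays per group, adjusted p = 0.00543). Pu9- gave 0.22 ± 0.08 (adjusted p = 0.171) and Pu5- 0.23 ± 0.08 (adjusted p = 0.232), so neither passed. Averaged over the 3 times, the difference with Pu27 was 0.20 ± 0.05 (adjusted p = 0.00775, up to 0.337 without replicate 2 or replicate 3), and 0.05 ± 0.05 between Pu27 and Pu9- (95% interval -0.04 to 0.14).

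The ratio of 3′ to 5′ ACTB signal, a sign of RNA integrity or labelling length, was 2.15 to 2.30 log2 on the Pu27 arrays of 72 h. That was above the 1.97 to 2.11 of untreated arrays of 72 h. Pu9- arrays of 72 h spanned 1.99 to 2.32 and Pu5- arrays 1.93 to 2.15. With that ratio as a covariate RPL39L differed by 0.40 (adjusted p = 0.00518). Fitted on the 6 compared arrays of 72 h alone, the adjusted p was 0.126, and without replicate 2 or replicate 3 throughout it reached up to 0.266.

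RPL13, a large subunit protein, was lower with Pu27 when the times were averaged. At 24 h it read 10.92, 11.03 and 10.91 with Pu27 and 11.09, 11.09 and 11.10 in untreated cells. At 48 h the values were 11.17, 11.18 and 11.25 with Pu27 and 11.35, 11.35 and 11.54 in untreated cells, and at 72 h 11.13, 11.12 and 11.24 with Pu27 and 11.37, 11.35 and 11.43 in untreated cells. All 9 Pu27 arrays were below every untreated array of their time. The mean difference was -0.19 ± 0.04 (adjusted p = 0.00637), where 3.98% of all genes passed. It was -0.06 ± 0.04 with Pu9- (adjusted p = 0.728, 0.0882% of all genes) and -0.13 ± 0.04 with Pu5- (adjusted p = 0.236, 0.254%). Leaving out replicate 1, 2 or 3 throughout raised the adjusted p of the Pu27 difference to as much as 0.230.

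RPL22L1, the paralog of the RNA-binding protein RPL22, had the largest difference of any member at 72 h. Its values were 10.28, 11.21 and 10.69 with Pu9-, against 10.24, 10.39 and 10.08 in untreated cells, and the arrays overlap. The difference of 0.49 ± 0.16 did not pass (adjusted p = 0.12). With Pu27 it was 0.08 ± 0.16 and with Pu5- 0.17 ± 0.16.

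Matched in dose and time, the 3 oligonucleotides were compared in 3 pairs over the mean of the times, and no member passed the test in any. With arrays shifted to a common median 1 member passed between Pu27 and Pu9- (1.23% of all genes), and with the mean of each gene's probe sets 2 did (1.64%). With the replicate number as a block 1 did (3%). The share of all genes called was 1.38% for Pu27 against Pu9-, 0.248% for Pu27 against Pu5- and 0% for Pu9- against Pu5-. Unadjusted p-values under 0.05 were found for 3, 0 and 0 members. RPL22L1 had the widest gap, with a mean difference of -0.30 between Pu27 and Pu9- (95% interval -0.49 to -0.12, adjusted p = 0.0877 over all genes). The interval lay within 1.25-fold for 70, 69 and 70 of the 71 members, again as a statement on probe set signal. A moderated F test of whether an oligonucleotide's effect changed between the times called 0 members for each, beside 0.0441%, 0.00552% and 0.0441% of all genes. The unadjusted p was under 0.05 for 1, 0 and 0 members.

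**Figure D2:**
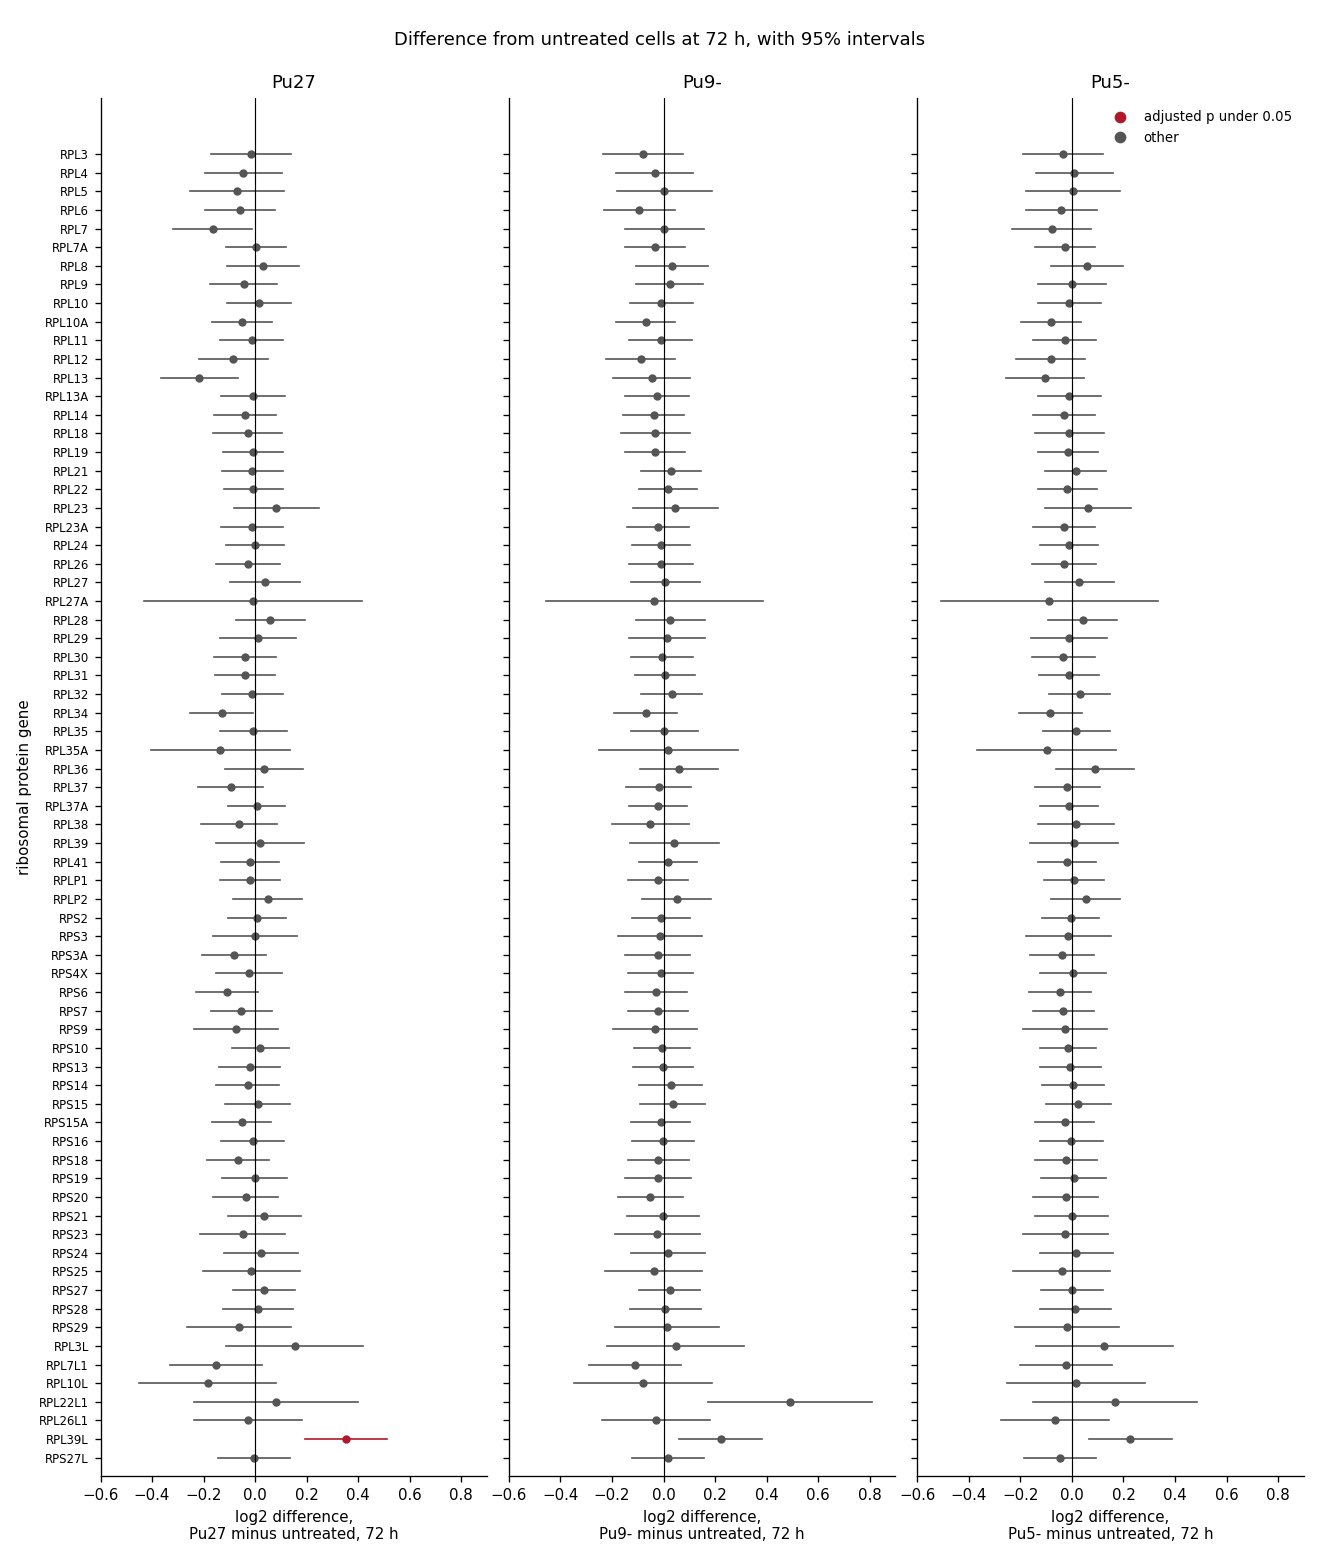
Points are log2 differences from untreated cells at 72 h for the 71 genes with Pu27 (left), Pu9- (middle) and Pu5- (right), and lines are 95% intervals from limma, 3 arrays per group. Only RPL39L with Pu27, in red at 0.35, passed the adjusted test; nearly all other intervals cover 0.

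Between times in culture, single ribosomal protein genes changed by larger amounts. In untreated cells at 24 h, 16 of the 71 members differed from 0 h (22.5%), beside 28.6% of all genes, with 3 higher (14% of all genes) and 13 lower (14.6%). RPL3, RPL12, RPS25 and RPS3 led the falls and RPL35A, RPL27A and RPL26L1 made up the rises. Of the small subunit genes 0 of 23 rose and 4 fell, and of the large subunit genes 2 of 41 rose and 8 fell. The median over the members was -0.10 and over all genes -0.03. The all-gene median of the arrays itself differed by -0.10 between 24 h and 0 h, and with arrays shifted to a common median the members' median was 0.00 and 7 members passed. The size of a fall over the whole group therefore rests on the scaling. The count of calls ran between 6, with the compared arrays fitted alone, and 35, with the mean of each gene's probe sets (49.3%, beside 28.8% of all genes). Whether the members' share was below or above that of all genes thus depended on the fit.

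RPL3, a core protein beside the peptidyl transferase centre, read 13.38, 13.32 and 13.42 at 24 h and 13.94, 13.74 and 13.71 at 0 h. The groups do not overlap and the difference was -0.42 ± 0.08 (adjusted p = 3.91e-05). RPL12, a protein at the base of the stalk, read 13.65, 13.53 and 13.54 at 24 h and 14.04, 13.90 and 13.91 at 0 h, a difference of -0.38 ± 0.07 (adjusted p = 2.18e-05). RPS25, a small subunit protein known for its part in initiation at some viral internal entry sites, read 13.42, 13.23 and 13.45 at 24 h and 13.78, 13.73 and 13.76 at 0 h (difference -0.39 ± 0.09, adjusted p = 0.00105). These 3 genes and the 3 that rose passed also with arrays shifted to a common median. The call of RPS25 was lost with the mean of its probe sets (adjusted p = 0.932) and without replicate 2 throughout (adjusted p = 0.0700). RPS3, which lies at the entry of the messenger channel, differed by -0.28 ± 0.08 (adjusted p = 0.00642), but did not pass after that shift, nor without the first array of 0 h (adjusted p = 0.0608). RPL39L differed by -0.27 ± 0.08 (adjusted p = 0.00778) and missed the threshold after the shift (-0.17, adjusted p = 0.105). The other 8 members called lower, RPL23, RPL26, RPL7, RPL28, RPL8, RPL34, RPS14 and RPS6, differed by -0.27 to -0.16. Their single calls were not checked against the alternatives.

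RPL35A, a large subunit protein known from Diamond-Blackfan anaemia, stood apart in size. Its probe set read 10.00, 10.28 and 9.92 at 24 h and 8.30, 8.24 and 8.41 at 0 h, a rise of 1.75 ± 0.13 (adjusted p = 2.37e-12). By 72 h it read 7.53, 7.42 and 7.52, which was -0.82 ± 0.13 from 0 h (adjusted p = 5.0e-05). With the mean of its probe sets this later difference did not pass (adjusted p = 0.211). RPL27A read 5.65, 5.35 and 5.16 at 24 h and 4.09, 3.96 and 3.94 at 0 h (1.39 ± 0.21, adjusted p = 1.94e-06), all of it within the dim part of the scale. The other 2 probe sets of RPL35A did not pass (adjusted p = 0.0874 and 0.202), with means of 7.52 at 24 h and 7.31 at 0 h for one and 3.78 at 24 h and 3.45 at 0 h for the other.

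Fewer members were called at later times in untreated cells. At 48 h no member differed from 0 h (5.18% of all genes, 6 members at an unadjusted p under 0.05, and 1 past the test with the replicate number as a block). At 72 h 4 members did (15.6% of all genes), of which 3 were paralogs and the fourth RPL35A. RPL22L1 read 10.24, 10.39 and 10.08 at 72 h and 9.66, 9.53 and 9.53 at 0 h, a rise of 0.66 ± 0.16 (adjusted p = 0.0033). RPL26L1, a close copy of RPL26, fell to 9.67, 9.64 and 9.42 at 72 h, against 9.81, 9.96 and 9.93 at 0 h (-0.32 ± 0.10, adjusted p = 0.0295). RPL7L1, a relative of RPL7 known to act in ribosome assembly, read 10.73, 10.57 and 10.80 at 72 h and 10.80, 10.99 and 11.09 at 0 h, with overlapping arrays (-0.26 ± 0.09, adjusted p = 0.0385). Each of the last 2 calls was lost without any 1 of 4 of the 6 arrays and after the shift to a common median.

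Parent genes and their paralogs gave different values. At 72 h RPL22 differed from 0 h by 0.01 ± 0.06 beside 0.66 for RPL22L1, and RPL26 by 0.02 ± 0.06 beside -0.32 for RPL26L1. Between 24 h and 0 h RPL26 differed by -0.26 ± 0.06 (adjusted p = 0.00105) and RPL26L1 by 0.48 ± 0.10 (adjusted p = 0.000356). The difference within a pair was not tested. RPL3L, RPL10L and RPS27L, a copy of RPS27 known as a p53 target, passed in no comparison with 0 h or with untreated cells. RPL26 and RPL26L1 encode near-identical proteins, and cross-hybridisation between them was not tested.

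**Figure D3:**
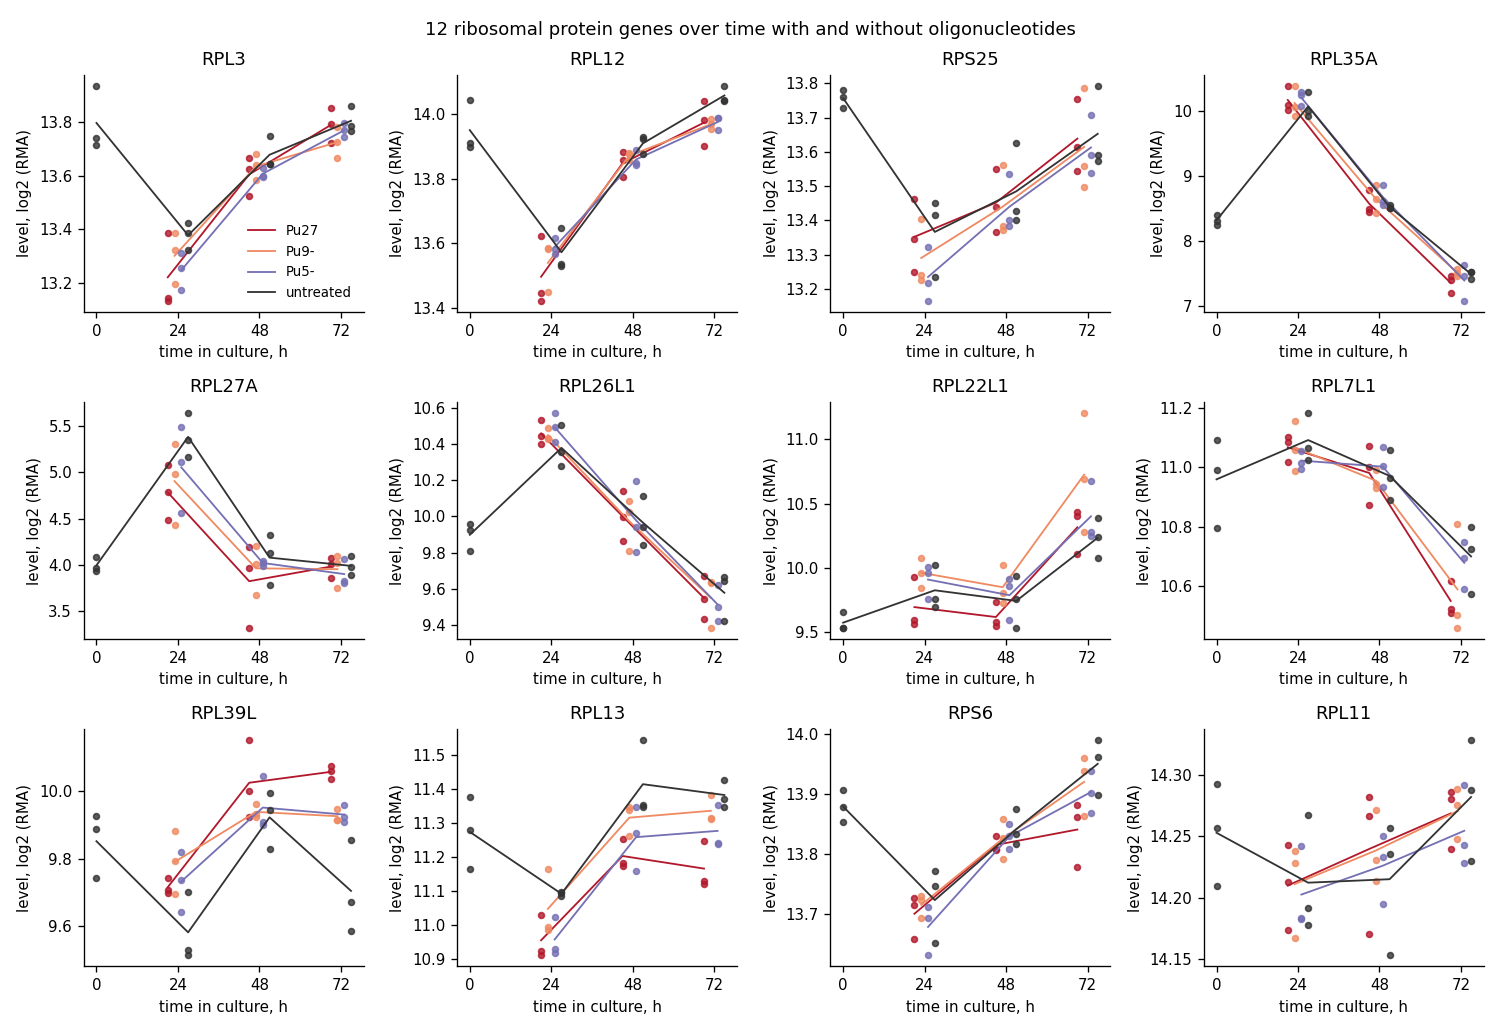
Each panel shows 1 gene, with time in culture (h) across and level (log2, RMA) up; points are single arrays, lines join the means of 3, and arms are drawn slightly apart in the order Pu27, Pu9-, Pu5- and untreated, which alone has 0 h. RPL3, RPL12 and RPS25 dip at 24 h, RPL35A, RPL27A and RPL26L1 peak there, and the arm means lie furthest apart in RPL27A at 24 h and in RPL22L1 and RPL39L at 72 h. The vertical scales differ between panels.

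The same passage of time could be examined in each of the 4 arms, whose 24 h and 72 h groups share no array. This comparison was added after values had been seen. Arrays of the same replicate number and time deviated together in most pairs (46 of 54 with r over 0.1). Agreement between the arms can therefore not be taken as that of 4 independent repeats. At 72 h against 24 h, 21 members passed with Pu27 (36.4% of all genes), 19 with Pu9- (35.5%), 17 with Pu5- (36.1%) and 23 in untreated cells (35.5%). These are 29.6%, 26.8%, 23.9% and 32.4% of the members, below the shares of all genes in this fit. With the mean of each gene's probe sets they were 52.1%, 49.3%, 45.1% and 46.5%, above the 35.9% to 36.9% of all genes, and they were also above with a variance trend and robust fitting (43.7% to 52.1%). The direction was uneven. Whatever their p, 58 of the 71 members were higher at 72 h in all 4 arms, as were 29.9% of all genes. Lower in all 4 were 4 members and 25.4% of all genes. The all-gene median of the arrays itself was higher at 72 h, by 0.07, 0.01, 0.05 and 0.06 in the order above. These signs were not counted again with arrays shifted to a common median. Medians over the members were 0.10, 0.08, 0.08 and 0.12 in the order above, and 0.03 to 0.07 with arrays shifted to a common median.

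Calls in all 4 arms were made for 6 higher members (12.6% of all genes) and 4 lower members (12.7%). Those higher were RPL3, RPL12, RPS25, RPL38, RPL13 and RPL22L1. At 72 h RPL3 read 13.72, 13.79 and 13.85 with Pu27, against 13.13, 13.39 and 13.14 at 24 h, a difference of 0.57 ± 0.08 (adjusted p = 1.47e-07). The differences of RPL3 were 0.42 ± 0.08 with Pu9-, 0.52 ± 0.08 with Pu5- and 0.43 ± 0.08 in untreated cells. Those of RPL12 were 0.48, 0.43, 0.39 and 0.49, each ± 0.07, and those of RPL22L1 were 0.62, 0.76, 0.49 and 0.41, each ± 0.16. For RPL22L1 the call in untreated cells (adjusted p = 0.0397) was lost without any 1 of 4 of the 6 arrays, with adjusted p up to 0.169. It was also lost with the mean of its probe sets and after the shift to a common median (adjusted p up to 0.364). With Pu5- the call of RPL22L1 was lost without any 1 of 2 arrays (adjusted p up to 0.120) and with the mean of its probe sets (adjusted p = 0.0897). RPS25 differed by 0.29, 0.32, 0.38 and 0.29, each ± 0.09, and its call with Pu27 was lost without either of 2 arrays (adjusted p up to 0.0805), with ACTB as a covariate, with the compared arrays alone, and after the median shift. With Pu9- it was lost without the third array of 72 h (adjusted p = 0.0644). Leaving out 1 replicate number throughout also ended the calls of RPL38 in untreated cells (adjusted p = 0.0568), RPL13 with Pu9- (0.0641) and RPS25 with Pu27 (up to 0.177). For RPL22L1 it ended those with Pu27 (0.0665), with Pu5- (up to 0.105) and in untreated cells (up to 0.162). Single calls of RPL38 with Pu27, Pu9- and Pu5- were not checked against the alternatives. Nor were those of RPL13 with Pu27 and in untreated cells and of RPS25 in untreated cells. The arms were not tested against each other in this comparison beyond the F tests above.

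Those lower in all 4 arms were RPL35A, RPL27A, RPL26L1 and RPL7L1. RPL35A read 7.40, 7.20 and 7.47 with Pu27 at 72 h, against 10.09, 10.39 and 10.02 at 24 h. Its differences were -2.81, -2.61, -2.81 and -2.57 for Pu27, Pu9-, Pu5- and untreated cells, each ± 0.13. For RPL26L1 they were -0.91, -0.90, -0.98 and -0.80, each ± 0.10, and for RPL7L1 -0.52, -0.48, -0.35 and -0.39, each ± 0.09. The call of RPL7L1 with Pu5- was lost without replicate 2 throughout (adjusted p = 0.0610). RPL27A differed by -0.80, -0.95, -1.15 and -1.40, each ± 0.21.

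**Figure D4:**
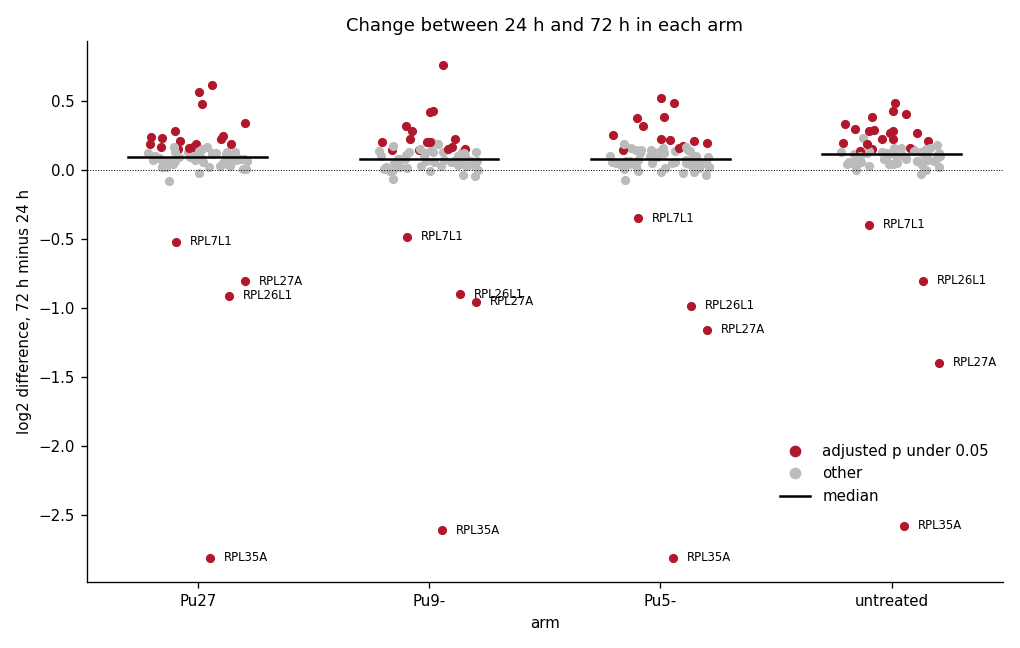
Each point is the log2 difference of 1 gene between 72 h and 24 h within an arm, red where the adjusted p was under 0.05, and black bars are medians over the 71 genes. In every arm most points lie a little above 0, with medians of 0.08 to 0.12, and RPL35A lies lowest, between -2.57 and -2.81.

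Members picked by role differed by small amounts. RPL5 and RPL11 carry the 5S ribosomal RNA and are known to restrain MDM2 when ribosome assembly fails. RPL11 stayed between -0.04 and 0.03 of 0 h in untreated cells at all times, with intervals of 0.12 either way, and differed by -0.01 ± 0.06 with Pu27 at 72 h. RPL5 differed by 0.18 ± 0.09 at 72 h against 0 h (adjusted p = 0.182) and by -0.07 ± 0.09 with Pu27 at 72 h (adjusted p = 0.754). RPS6, the substrate of S6 kinase, read 13.65, 13.75 and 13.77 at 24 h and 13.91, 13.85 and 13.88 at 0 h, which just passed (-0.16 ± 0.06, adjusted p = 0.0472), and it did not pass with Pu27 at 72 h (-0.11 ± 0.06, adjusted p = 0.342). The 24 h call of RPS6 was not checked against the alternatives. Between 24 h and 0 h the all-gene median of the arrays itself differed by -0.10. RPS19, the gene most often mutated in Diamond-Blackfan anaemia, differed by -0.07 ± 0.06 at 24 h and by 0.00 ± 0.06 with Pu27 at 72 h. RPS27 differed by -0.15 ± 0.06 at 24 h (adjusted p = 0.0598). The stalk genes RPLP1 and RPLP2 differed at 24 h by 0.03 ± 0.06 and by -0.11 ± 0.07, neither past the test.

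Genes with a pyrimidine run at the start and genes without one were compared by their medians. At 24 h against 0 h, the 41 genes with it, paralogs aside, had a median of -0.10, with 2 higher and 8 lower calls. The 13 without it had a median of -0.04, with 0 higher and 1 lower call. Of all genes 14% were called higher and 14.6% lower, and the all-gene median of the arrays differed by -0.10. With Pu27 at 72 h the medians were -0.01 and -0.02, with 0 calls in either group, beside 5.08% of all genes. At an unadjusted p under 0.05 there were 2 and 0 genes. Genes with and without the run were not tested against each other. By the probe set used, RPL35A and RPL27A rose at 24 h and RPL12, RPS25 and RPS14 fell, and all of them carry the run, as shown above. Other probe sets of RPS25 and RPS14 rose at 24 h, as given below.

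More than 1 probe set measured 52 of the genes, 186 probe sets in all, and the 115 not used above included 60 that averaged under 10 log2. At 24 h against 0 h in untreated cells 19 of the 115 were called higher and 27 lower, beside 26.3% of all single-symbol probe sets. Probe sets called in both directions were found for 5 genes, RPL28, RPL34, RPS14, RPS25 and RPS28. Which stretch or isoform of a transcript each probe set reads was not examined.

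For RPS14, a small subunit protein known from the 5q deletion syndrome, the probe set used differed by -0.19 ± 0.06 at 24 h, around 13.8. A second probe set of RPS14 read 10.71, 10.78 and 10.65 at 24 h and 8.78, 9.14 and 9.17 at 0 h, a rise of 1.68 ± 0.13 (adjusted p = 3.92e-12). At 72 h it read 8.04, 7.79 and 7.49, which was -1.26 ± 0.13 from 0 h. The same probe set fell between 24 h and 72 h in all 4 arms, with differences of -2.60 with Pu27, -2.65 with Pu9-, -2.56 with Pu5- and -2.94 in untreated cells. The third probe set of RPS14 rose at 24 h by 1.35 ± 0.11.

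Dimmer probe sets of RPL31 and RPS29 took the opposite course. That of RPL31 read 6.51, 6.77 and 6.71 at 24 h and 8.06, 7.43 and 7.62 at 0 h (-1.04 ± 0.12, adjusted p = 4.21e-08), beside -0.03 ± 0.06 for its bright probe set. That of RPS29, a small zinc-binding protein of the small subunit, read 6.61, 6.74 and 6.45 at 24 h and 7.93, 7.45 and 7.49 at 0 h (-1.03 ± 0.16, adjusted p = 4.36e-06). One dim probe set of RPS25 rose at 24 h, by 0.78 ± 0.13, while its bright ones fell. With the mean of a gene's probe sets in place of the brightest, the difference of RPS25 between 72 h and 24 h turned negative in the treated arms. It then passed the test as lower with Pu27 and Pu5-.

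**Figure D5:**
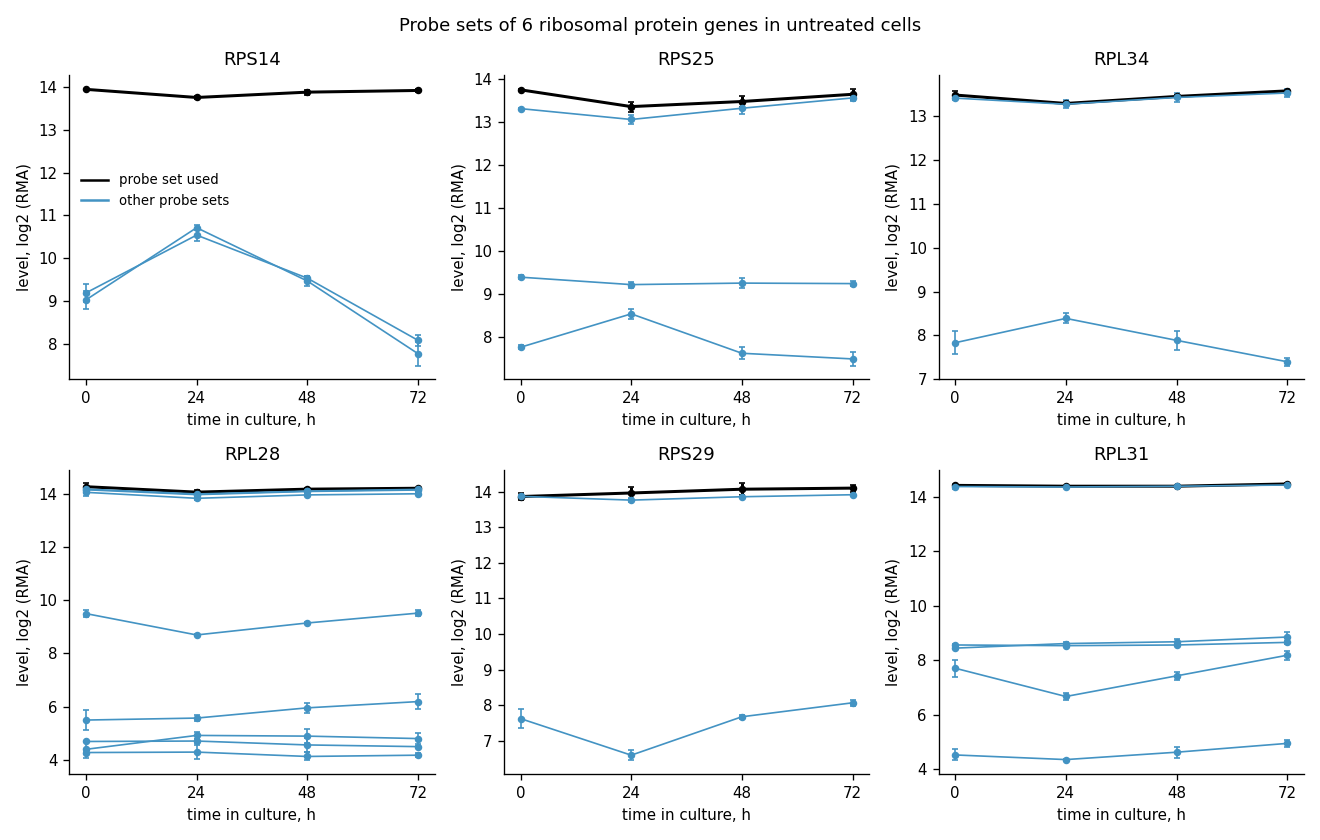
Lines give the mean level (log2, RMA) of every probe set of 6 genes in untreated cells at 0, 24, 48 and 72 h, with SD bars of 3 arrays; black is the probe set used and blue are the others. Black lines stay above 13, while single blue lines at 7 to 11 swing, upward at 24 h in RPS14, RPS25 and RPL34 and downward in RPL31 and RPS29.

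Among the 115 other probe sets 1 was called higher and 6 lower with Pu27 at 72 h, beside 3.95% of all single-symbol probe sets, and all 7 averaged under 10. One of RPS23, a protein of the decoding centre, read 6.58, 6.41 and 6.70 with Pu27 and 7.14, 7.22 and 7.21 in untreated cells (-0.63 ± 0.11, adjusted p = 0.000694), without overlap. One of RPL4 read 5.66, 5.88 and 6.16 with Pu27 and 6.60, 6.54 and 6.54 in untreated cells (-0.66 ± 0.13, adjusted p = 0.00301). The bright probe sets of RPS23 and RPL4 differed by under 0.1 in the same comparison. With Pu9- at 72 h 1 of the 115 was called, a probe set of RPL28, and with Pu5- 0, beside 0.787% and 0.387% of all single-symbol probe sets.

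Genes that work with the ribosomal proteins also changed in untreated cells. Of 26 measured ribosome assembly and export factors, 19 rose and 0 fell at 24 h against 0 h, with a median of 0.55, where 14% of all genes rose and 14.6% fell. At 72 h 1 rose and 13 fell, with a median of -0.23, where 7.61% of all genes rose and 7.99% fell. MRTO4, which builds the stalk base, differed by -0.76 at 72 h (adjusted p = 0.0002), NOP56 by -0.56 and BOP1 by -0.52. Beside the same 24 h shares of all genes, 9 of the 12 listed chaperones and importers rose at 24 h, and of 74 mitochondrial ribosomal proteins 42 rose and 3 fell. Of 19 translation factors and other genes described with a 5′ TOP, 1 rose and 7 fell at 24 h (median -0.09). The all-gene median of the arrays itself differed by -0.10 between 24 h and 0 h. No list was examined again with arrays shifted to a common median.

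At 72 h against 0 h, where 7.61% of all genes rose and 7.99% fell, 1 of the 74 mitochondrial ribosomal proteins rose and 28 fell, with MRPL4 (-0.65), MRPL40 (-0.62) and MRPS12 (-0.61) lowest. Of the 12 chaperones and importers 2 rose and 2 fell, among them GRWD1, a chaperone of RPL3 (-0.50), TNPO1 (0.41) and LTV1 (-0.36). Of the 19 translation factors and other genes with a 5′ TOP 3 rose and 1 fell, with NAP1L1 at 0.30, TRAP1 at -0.29 and EIF3H at 0.27. Of 20 genes of mTORC1 signalling and TOP control 2 rose and 5 fell at 72 h, and 6 rose and 6 fell at 24 h. At 72 h EIF4G1, the scaffold of the cap-binding complex, differed by -0.62, EIF4EBP2 by -0.44 and DDIT4, an inhibitor of mTORC1, by -0.42. RPL36AL, a copy of RPL36A outside the symbol rule, fell by 0.34 (adjusted p = 0.000684).

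With Pu27 at 72 h, where 2.94% of all genes rose and 2.15% fell, 5 of the 26 assembly factors fell and 0 rose, among them MRTO4 (-0.49, adjusted p = 0.0304), RRS1 (-0.44, adjusted p = 0.0291) and NOB1 (-0.42, adjusted p = 0.0044). Of the 12 chaperones and importers 2 fell, PDCD2 by 0.57 and LTV1 by 0.40, and of 74 mitochondrial ribosomal proteins 1 rose and 3 fell, MRPL1 by 0.45, MRPS27 by 0.43 and MRPL45 by 0.39. Of the 19 translation factors 0 passed, with 1 at an unadjusted p under 0.05, and of 20 genes of mTORC1 signalling and TOP control 0 passed, with 4 at an unadjusted p under 0.05. FAU, which encodes the small subunit protein fused to a ubiquitin-like domain, differed by 0.08 (adjusted p = 0.575) and RPL36AL by -0.07 (adjusted p = 0.678). Calls of genes in these lists, here and above, were not checked against the alternatives, the ACTB covariate among them. With the compared arrays fitted alone, 1.85% of all genes passed with Pu27 at 72 h, beside 5.08% in the main fit. The lists with Pu9- and Pu5- are not described here, so whether these falls are particular to Pu27 is not shown.

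The cells showed the myeloid transcripts LYZ (12.99), CTSG (13.88), ELANE (12.04) and CEBPA (11.20), while MPO (4.85) and SPI1 (5.29) were dim. The 19 measured markers of T cells, B cells, erythroid cells, epithelium and fibroblasts had means between 3.21 (EPCAM) and 7.33 (HBB). Bulk RNA does not separate fewer cells expressing a gene from less RNA per cell, and arrays brought to equal distributions do not measure a change in the total ribosomal messenger content of a cell.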

How the data were processed

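Total RNA of U937 cells (100 ng per array) was amplified, labelled from the 3′ end and hybridised to Affymetrix arrays, as the labels' protocols describe. The deposited values are log2 probe set levels that the authors made with RMA, per the submitters' processing notes, which also name limma, both with the version not given in the sources used here. RMA gives all arrays the same distribution of probe signals, so a shift shared by most transcripts is not measured. Array depth does not apply, and 3 arrays per group limit the precision.

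Control probe sets and those with no symbol or several symbols were left out, which kept 44988 of 49293. Where a gene had several probe sets, the brightest on average across all 39 arrays stood for it. Means of the 13 groups were fitted over 18132 genes with limma 3.58.1 (R 4.3.3, lmFit and eBayes), and p-values were adjusted by Benjamini-Hochberg over all genes, with a threshold of 0.05. The fit was tested on simulated data with independent noise for each array, so a replicate effect shared between arrays was not covered. Values after ± are standard errors of the fit, on the log2 scale.

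The members and lists were chosen with earlier results of these data known. The genes named are members past the test (the 5 largest rises and falls where over 10 passed), the 5 brightest and 5 dimmest, all paralogs, RPL5, RPL11, RPS6, RPS19, RPLP1, RPLP2 and RPS27 by role, genes whose probe sets were called in opposite directions, and the 3 largest called changes of each other list at 72 h. RPLP0 and RPSA were not analysed here. RPL13 at single times, RPL22L1 with Pu9-, and the probe sets of RPL31, RPS29, RPS23 and RPL4 were picked after their values were seen. Alternatives comprised other probe set rules, scalings, filters, covariates and left-out arrays, and single calls were checked against them only for members.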

Additional observations from a re-analysis of the deposited data

How the results depend on the processing

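Counts of ribosomal protein genes called depended on how the spread was estimated. With the compared arrays fitted alone, 6 members passed at 24 h against 0 h and 2 at 72 h against 0 h in untreated cells, 0 with Pu27 at 72 h, and 8, 9, 9 and 13 at 72 h against 24 h with Pu27, Pu9-, Pu5- and in untreated cells. A variance trend with robust fitting gave 31 at 24 h, 2 at 48 h, 2 with Pu27 at 72 h, and 37, 34, 31 and 35 at 72 h against 24 h in the same order. With genes of mean 6 or more only, 28, 1 and 2 passed at 24 h, at 48 h and with Pu27 at 72 h. Arrays of the same replicate number and time deviated together in most pairs: 46 of 54 had r over 0.1 (lowest -0.15, median 0.25, against -0.13 for other numbers), and 34 of 36 arrays were closest to their own number. This hints at a shared replicate effect; the labels do not tie the number to a repeat experiment and 8 pairs missed the limit, so the block was kept as an alternative. With the replicate number as a block, 1 member passed at 48 h, 1 with Pu9- at 72 h and 1 between Pu27 and Pu9-; the other counts stayed within 1.5 times.

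The mean of a gene's probe sets gave 35 calls at 24 h (median -0.069), 11 at 72 h against 0 h (median 0.042), 7 with Pu27 and 1 with Pu5- at 72 h, 4 with Pu27 over the times, 2 between Pu27 and Pu9-, and 37, 35 and 32 at 72 h against 24 h with Pu27, Pu9- and Pu5-. The median with Pu27 at 24 h was then -0.025. RPS25 at 72 h against 24 h reversed to -0.14, -0.13 and -0.15 with Pu27, Pu9- and Pu5-, and passed as lower with Pu27 and Pu5-. Arrays shifted to a common median gave 7 calls at 24 h, 2 at 72 h against 0 h, 2 with Pu27 at 72 h, 1 between Pu27 and Pu9-, and 8, 11 and 13 at 72 h against 24 h with Pu27, Pu5- and in untreated cells. The medians were then -0.0017 at 24 h, 0.050 at 72 h, -0.030 and -0.042 with Pu27 at 24 and 72 h, 0.040 with Pu9- and 0.010 with Pu5- at 72 h, 0.022 with Pu5- at 48 h and 0.027 with Pu9- over the times. They were -0.052 between Pu27 and Pu9-, -0.049 between Pu27 and Pu5-, and 0.035, 0.038 and 0.057 at 72 h against 24 h with Pu27, Pu5- and in untreated cells. With the ACTB covariate the Pu9- median at 72 h against 24 h was 0.11.

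Leaving out arrays gave 7 to 17 calls at 24 h (median -0.11 to -0.071), 0 to 1 at 48 h and 2 to 4 at 72 h against 0 h (median 0.0056 to 0.035). It gave 0 to 1 with Pu27 or Pu9- at 72 h, 0 to 2 with Pu27 and 0 to 1 with Pu9- over the times, and 0 to 1 between them. At 72 h against 24 h it gave 8 to 20 with Pu27, 8 to 15 with Pu9- (median 0.077 to 0.10), 7 to 15 with Pu5- and 10 to 23 in untreated cells. The cause of these shifts was not tested.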

Other observations

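A further 38 probe sets name a ribosomal protein gene together with other symbols and entered no comparison. Their median level was 13.4 log2. At 24 h against 0 h in untreated cells they differed by a median of -0.06, between -1.12 and 0.86. With Pu27 against untreated cells at 72 h the median difference was -0.05, between -0.99 and 0.30.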
